A study of Mus musculus with 25 samples.

Results

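Chromatin accessibility of PD1-negative CD8+ T cells after a first pregnancy was compared with that of CD8+ T cells of naive mice by ATAC-seq, which maps DNA open to a transposase. The comparison used 6 of the 25 libraries of the study, 3 of the group Naive+Pregnant Cluster 1 (N+P C1) and 3 of the group Naive, and all 13527 peaks in which reads were counted. All cells were T_FGS, endogenous CD8+ T cells of young adult C57BL/6 females that bind a tetramer of ovalbumin peptide and H-2Kb, sorted from spleen and lymph nodes. Naive mice had neither pregnancy nor graft, while N+P mice had been mated to 2W-OVA.BALB/c males, so that some of the offspring carry the antigen, and were examined after delivery. N+P cells were sorted by the inhibitory receptor PD1: C1 is PD1-negative, and C5 is PD1+ and CD73+. The labels name no PD1 gate for Naive cells, so that the sort and the pregnancy both separate N+P C1 from Naive and cannot be told apart. By the study's methods, cell suspensions were made from individual mice, but the labels do not tie libraries to mice or experiments, so p-values measure the spread between these libraries, which may be partly technical.

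A naive CD8+ T cell is quiescent and keeps regulatory DNA open near genes for survival and lymph node homing, such as Il7r, Ccr7 and Tcf7. Antigen remodels this landscape: AP-1, a family of dimers of Fos and Jun proteins, is induced by T cell receptor signals, while RUNX factors maintain the CD8 lineage. Promoters are open in most cell types, whereas elements in introns and between genes carry much of what is specific to a cell state. In bulk cells, a lower count at a peak can come from fewer cells with an open site or from less accessibility per cell, and these cannot be told apart.

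The differences were small. In the fit over all 25 libraries, 483 peaks were higher in N+P C1 and 97 lower at an adjusted p under 0.1, and 1 peak, in an intron of Vgll4, passed the fold threshold as well. Of the higher peaks 90.1% were at promoters and of the lower peaks 32.0%, against 75.4% of the peaks that could pass. A fit over the 6 libraries alone gave 933 higher and 949 lower peaks. Lower peaks included elements nearest to Tcf7, Bach2, Foxp1, Ets1 and Ifngr1, and higher peaks included the promoters of Atp2b1, Ppp3ca, Ptger4 and Cblb. How many peaks passed rested on Naive replicates 1 and 2: the third Naive library lay closer to the N+P libraries than to its own group.

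The sequences of 4 elements outside promoters are shown as examples of peaks described below, and were chosen in view of their motifs and values. They are windows of 300 bp around peak midpoints on the plus strand of GRCm39, read from the reference genome, and none overlaps an annotated exon. Capitals mark matches on either strand to an AP-1 motif, TGANTCA, or a RUNX motif, TGTGGTT, whose reverse strand reads AACCACA. Vgll4 (chr6:114881890-114882189, intron) is the called peak, Oas3 (chr5:120913678-120913977, intron) and Tcf7 (chr11:52190407-52190706, between genes) are among the 10 lower peaks with the smallest adjusted p, and Nrip1 (chr16:76134068-76134367, intron) is a higher peak of the 6-library fit.
Vgll4: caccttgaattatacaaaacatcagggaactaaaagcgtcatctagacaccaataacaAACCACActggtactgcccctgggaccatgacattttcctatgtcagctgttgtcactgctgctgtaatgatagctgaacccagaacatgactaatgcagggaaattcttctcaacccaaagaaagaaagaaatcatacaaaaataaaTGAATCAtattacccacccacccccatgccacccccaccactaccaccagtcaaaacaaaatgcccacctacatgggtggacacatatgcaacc
Oas3: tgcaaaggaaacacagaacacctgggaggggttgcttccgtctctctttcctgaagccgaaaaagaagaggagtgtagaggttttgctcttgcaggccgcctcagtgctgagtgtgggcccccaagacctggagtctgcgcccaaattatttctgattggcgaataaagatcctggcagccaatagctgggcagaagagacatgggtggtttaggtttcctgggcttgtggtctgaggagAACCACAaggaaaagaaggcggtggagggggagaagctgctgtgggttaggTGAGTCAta
Tcf7: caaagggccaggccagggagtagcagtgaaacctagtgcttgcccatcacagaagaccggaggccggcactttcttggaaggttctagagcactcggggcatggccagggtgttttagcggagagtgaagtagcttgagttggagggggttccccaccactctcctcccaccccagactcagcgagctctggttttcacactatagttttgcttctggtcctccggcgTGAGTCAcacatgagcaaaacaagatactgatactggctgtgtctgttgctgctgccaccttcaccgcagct
Nrip1: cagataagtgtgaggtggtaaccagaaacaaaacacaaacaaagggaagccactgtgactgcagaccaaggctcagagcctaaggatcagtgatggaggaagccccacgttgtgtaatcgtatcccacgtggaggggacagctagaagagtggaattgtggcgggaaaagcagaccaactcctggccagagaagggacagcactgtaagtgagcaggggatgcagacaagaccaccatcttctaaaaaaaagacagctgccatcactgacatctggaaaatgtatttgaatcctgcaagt
The Vgll4 window holds an AP-1 match at bases 207 to 213 and a RUNX match at bases 59 to 65, counted from 1 at its 5′ end. In the Oas3 window the AP-1 match spans bases 292 to 298 and the RUNX match bases 241 to 247. The Tcf7 window has an AP-1 match at bases 229 to 235 and no RUNX match, and the Nrip1 window has neither. A match is a stretch of letters and does not show that a factor was bound.

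Counts in peaks added up to 5974632, 8252478 and 13165657 for the 3 Naive libraries and to 7419402, 7518542 and 4524243 for the 3 N+P C1 libraries. Naive replicate 3 stood apart from its group. Whether its identity, animals or sorting date differ was not tested, since the labels give neither date nor animal. Across peaks, its log2(normalized count + 1) correlated at 0.970 with the mean of the other Naive libraries but at 0.988 with the mean of N+P C1 and at 0.986 with that of N+P C5, while Naive replicates 1 and 2 correlated at 0.983 and 0.982 with the mean of their own group. Peaks within a library are not independent, so these values are descriptive. Naive replicates 1 and 2 were also the most alike pair, with a chi-square per degree of freedom of 2.81 against 3.41 to 14.7 for the other pairs within the groups, which is more than sampling noise, and they were kept as separate libraries. Counts of peaks that passed are given with and without Naive replicate 3 for all peaks and for several gene lists. Other values include it unless stated. Peaks at markers of other cells were scarce: 11 of 12 B cell genes, 9 of 12 myeloid genes and 9 of 10 erythroid genes had no peak, Cd79a among them. Lack of a peak does not show that a cell type was absent, since Cd8b1, a CD8 T cell gene, had none either. The single B cell peak, nearest to Cd74, summed to 101 to 192 normalized counts in Naive and 176 to 237 in N+P C1. The 3 myeloid peaks summed to 954 to 973 in Naive and 966 to 1034 in N+P C1, and the erythroid peak held 453 to 494 and 388 to 462. The 15 peaks of the CD4 T cell list summed to 7442 to 8534 in Naive and 7154 to 8919 in N+P C1, and the 17 peaks of the NK cell list to 7094 to 7903 and 7467 to 8048. All 5 ranges overlapped between the groups, and their part in the results was not tested.

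At the promoters of the sort and cell type markers fixed for this check, 0 peaks passed the test in either fit. Normalized counts, the raw counts divided by the library's size factor, were 346, 301 and 399 in Naive and 394, 454 and 420 in N+P C1 at the promoter of Nt5e, which encodes CD73. At Cd44, an activation marker, they were 135, 175 and 191 against 170, 181 and 181, which overlap. At the Cd8a promoter the Naive counts were 346, 292 and 216 and those of N+P C1 198, 193 and 219, with a log2 fold change of -0.48 ± 0.25 (SE) over 25 libraries and an adjusted p of 0.115 over 6. Log2 fold changes were -0.11 at the promoter of Il7r, the interleukin-7 receptor, -0.18 at Ccr7, -0.07 at Tcf7 and 0.02 at Lef1. The signs at Il7r, Tcf7, Lef1 and Cd44 changed under some alternatives. No promoter peak was found for Pdcd1, which encodes PD1, or for Cd8b1, so the PD1 gate could not be checked at its own gene.

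At an adjusted p under 0.1, the 483 higher peaks were 9.91% of the 4873 peaks with an adjusted p, and the 97 lower peaks 1.99%. The independent filter of DESeq2 had left out the other 8654 peaks. The lowest mean count over 25 libraries that kept an adjusted p was 609, and 75.4% of the peaks that kept one were at promoters, against 56.7% of all peaks. At an unadjusted p under 0.05, 1336 peaks were higher and 1235 lower. With the fold threshold of the study, an absolute log2 fold change over 0.9, 0 peaks were higher (0.0%) and 1 was lower (0.0205%). Fold changes of peaks that passed were modest, with a median of 0.33 (0.15 to 0.66) for higher and -0.44 (-0.92 to -0.20) for lower peaks. In 536 of these 580 peaks the normalized counts of both groups were fully separate. Over all 13527 peaks, groups did not overlap with N+P C1 higher in 1839 (13.6%) and lower in 1807 (13.4%). edgeR, on the same 25 libraries, found 0 higher and 2 lower peaks, with 1060 and 1370 at an unadjusted p under 0.05.

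**Figure D1:**
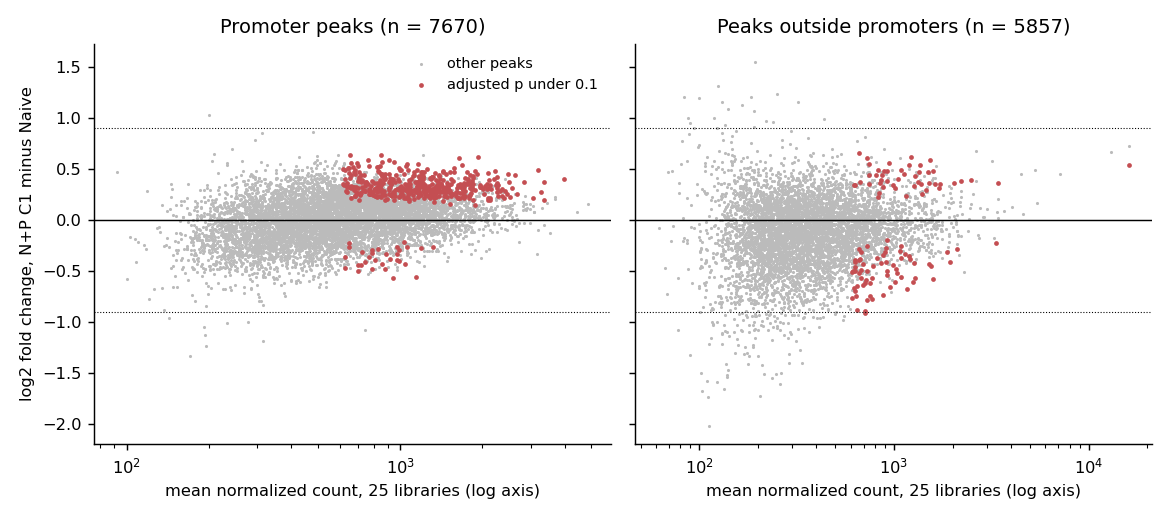
Log2 fold change of each peak (N+P C1 minus Naive, vertical axis) against its mean normalized count over 25 libraries (log axis), for 7670 promoter peaks and 5857 peaks outside promoters. Red points are the 580 peaks at an adjusted p under 0.1, all at a mean count of 609 or more, and dotted lines mark log2 fold changes of 0.9 and -0.9. Of the red promoter points 435 lie above 0 and 31 below, while the median of all promoter points is 0.03, and points outside promoters extend further below 0 than above it.

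The higher peaks had a larger share of promoters than the peaks that could pass, and the lower peaks a smaller one. Among the 483 higher peaks 435 were at promoters, 33 between genes, 13 in introns and 1 in an exon, whereas of the 97 lower peaks 31 were at promoters, 37 in introns and 29 between genes. The 4873 peaks with an adjusted p held 3676 at promoters (75.4%), 570 in introns and 572 between genes. With the filter off, 214 of 236 higher and 31 of 176 lower peaks were at promoters. The median log2 fold change was 0.03 over all promoter peaks, -0.13 over intron peaks and -0.09 over intergenic peaks. The median length was 1907 bp and the median count (the mean over the 6 libraries) 1257 for higher peaks, and 1218 bp and 816 for lower peaks, against 1552 bp and 943 for all peaks with an adjusted p. By these medians higher peaks were longer and stronger than the peaks that could pass, and lower peaks shorter and weaker. How far length and count contribute to the split was not tested. The share of a library's counts that fell in promoter peaks was 70.0%, 67.6% and 66.5% in N+P C1 and 66.0%, 66.7% and 66.0% in Naive. The means, 68.0% ± 1.81 (SD, n = 3) and 66.3% ± 0.374 (SD, n = 3), differed by 1.78 percentage points and the values overlapped (exact 2-sided permutation p = 0.2, where 0.1 is the smallest possible). Without N+P C1 replicate 1 the difference was 0.79 points. The split between higher and lower peaks moved with the filter and the scale. With the filter off and the scale unchanged, 236 peaks were higher and 176 lower. With total counts as library size 274 were higher and 408 lower, and with size factors from promoter peaks alone 164 and 334, but in both of these the filter also kept 13002 peaks, so scale and filter changed together. With loess offsets, where the filter kept 4610 peaks, 119 were higher and 128 lower, and with GC offsets, where it kept 11429, 477 and 418.

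The peak past both thresholds lay in an intron of Vgll4, which encodes a cofactor that binds TEAD transcription factors (chr6:114881187-114882892, 64915 bp from the gene start). Its normalized counts were 1251, 1329 and 749 in Naive and 472, 737 and 552 in N+P C1. Naive replicate 3 lay just above the highest N+P C1 library and well below the other Naive libraries. The means were 1109 ± 315 and 587 ± 136 (SD, n = 3 each), and the log2 fold change was -0.92 ± 0.28 (SE, adjusted p = 0.0481). The call was lost in 5 of 6 fits without a library and with edgeR. It was kept without Naive replicate 3, at a log2 fold change of -1.14, and lost without Naive replicate 1 (-0.82), Naive replicate 2 (-0.77) and N+P C1 replicates 1, 2 and 3 (-0.78, -1.12 and -0.88). A neighbouring Vgll4 intron peak (chr6:114869028-114872501) was lower by less, at 3011, 2897 and 2261 in Naive and 1831, 2146 and 2146 in N+P C1 (log2 fold change -0.42 ± 0.14, adjusted p = 0.0596).

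The 10 higher peaks with the smallest adjusted p, among peaks whose groups do not overlap, were all at promoters, with log2 fold changes from 0.28 to 0.48. The smallest adjusted p was at Homer1, a scaffold protein, with 1043, 1013 and 1172 in Naive and 1466, 1384 and 1317 in N+P C1 (0.37 ± 0.07, adjusted p = 0.000796). Fzd5, a Wnt receptor, followed (0.35, adjusted p = 0.0012), then Polr2h, an RNA polymerase subunit (0.30, adjusted p = 0.00287), and Mex3b, an RNA-binding protein (0.28, adjusted p = 0.00603). Counts are given for 4 more of the 10, picked after their values were seen. At Atp2b1, a plasma membrane calcium pump, counts were 2361, 2084 and 2787 in Naive and 3410, 3346 and 3122 in N+P C1 (chr10:98748955-98752830, 0.45 ± 0.10, adjusted p = 0.0114). At Ppp3ca, the catalytic subunit of calcineurin, they were 1977, 1812 and 2360 against 2612, 2720 and 2479 (0.34 ± 0.08, adjusted p = 0.0188). At Cblb, a ubiquitin ligase that restrains T cell receptor signaling, they were 2168, 2135 and 2467 against 2880, 2961 and 2896 (chr16:51850962-51853830, 0.37 ± 0.09, adjusted p = 0.0278). Separate groups were a condition for naming these peaks. Naive replicate 3 was the highest Naive library at Homer1, Atp2b1, Ppp3ca and Cblb. At Ptger4, a receptor for prostaglandin E2, counts were 1774, 1471 and 2057 in Naive and 2498, 2490 and 2428 in N+P C1 (chr15:5270761-5274565, 0.48 ± 0.12, adjusted p = 0.0278). The others were Ppp1r12a, a myosin phosphatase subunit (0.31), and Edem1, which acts in the degradation of misfolded proteins (0.32).

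Of the 10 lower peaks named by the same rule, 9 lay outside promoters. The largest change among them was between genes, 93534 bp from the start of Ifngr1, a chain of the interferon gamma receptor (chr10:19373754-19374572). Its counts were 924, 849 and 712 in Naive and 372, 463 and 514 in N+P C1 (-0.88 ± 0.22, adjusted p = 0.029). At the Tcf7 element, 15938 bp from the start of the gene of the transcription factor TCF-1 (chr11:52190089-52191024), they were 1035, 976 and 678 against 540, 602 and 605 (-0.62 ± 0.17, adjusted p = 0.0401). The third Naive library was the lowest of its group at both elements. At the Oas3 intron peak, near the start of a gene for an interferon-induced oligoadenylate synthetase (chr5:120913383-120914272), counts were 846, 846 and 688 against 535, 585 and 561 (-0.50 ± 0.13, adjusted p = 0.029). At Map4k4, a protein kinase, they were 901, 905 and 669 against 583, 612 and 548 (-0.50 ± 0.13, adjusted p = 0.033). The others were peaks nearest to Slc36a3, of an amino acid transporter family (-0.57), Neurl3, a ubiquitin ligase (-0.65), Ppard, a nuclear receptor (-0.50), Ugcg, the glucosylceramide synthase (-0.48), Scml4, a Polycomb-related protein (-0.59), and the promoter of Ubald2 (-0.56). Peaks were named after the closest start of a protein-coding gene, and whether they act on it is not known from these data.

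**Figure D2:**
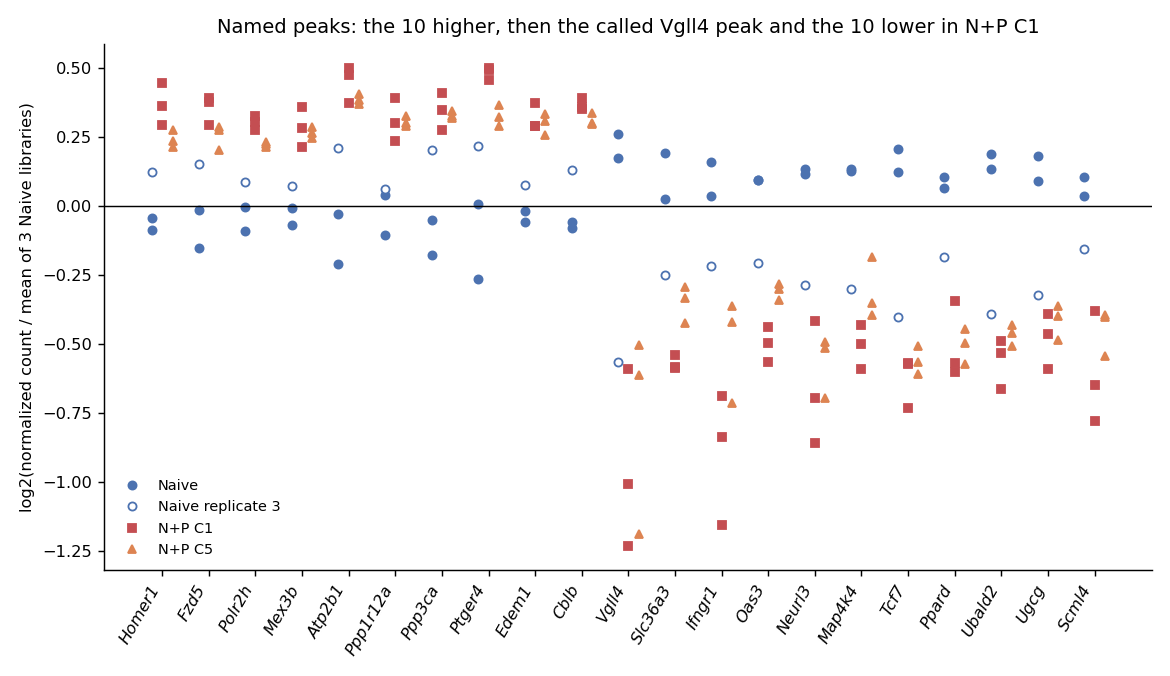
Log2 of each library's normalized count over the mean of the 3 Naive libraries, for the 10 named higher peaks, the Vgll4 peak and the 10 named lower peaks. Blue circles are Naive libraries (open, replicate 3), red squares N+P C1 and orange triangles N+P C5. The open circle lies nearest to N+P C1 of the 3 Naive libraries in every column. The 20 peaks were chosen for the difference between Naive and N+P C1.

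When the spread was estimated from the 6 libraries alone, every peak kept an adjusted p and the lower side grew. At an adjusted p under 0.1, 933 peaks were higher (6.9%) and 949 lower (7.02%). All 580 peaks of the 25-library fit had the same sign, and 484 of them passed again. With the fold threshold, 3 were higher (0.0222%) and 80 lower (0.591%), and edgeR on the same 6 libraries called 4 and 81. Of the 949 lower peaks 411 were in introns, 335 between genes and 183 at promoters, and of the 933 higher peaks 722 were at promoters. Promoters thus made up 19.3% of the lower and 77.4% of the higher peaks, against 56.7% of all peaks. The 80 called lower peaks were small, with a median length of 592 bp and a median count of 114, and 6 of them were at promoters. Of these 80 peaks 18.8% overlapped the Naive list of reproducible peaks deposited by the authors and 2.5% the N+P C1 list, against 62.6% and 62.9% of all peaks. For the weakest of 4 equal bins of peaks outside promoters, with a median count of 96.8, the shares were 0.0683% and 0.614%. The lists come from the same libraries in which the 80 peaks were chosen as lower in N+P C1. Their larger share in the Naive list is therefore not independent of that choice.

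The peaks called over 6 libraries that are described next were chosen after their values were seen. The smallest adjusted p was 1603 bp from the start of Sh2d2a, the gene of a T cell adaptor protein (chr3:87752258-87752659), with 278, 267 and 228 in Naive and 81, 118 and 111 in N+P C1 (log2 fold change -1.31 ± 0.21, adjusted p = 4.0e-06). An intron peak of Kdm2b, a histone demethylase, followed, at 420, 436 and 301 against 165, 192 and 115 (-1.26). A peak 13229 bp from the start of Ccr7, the lymph node homing receptor (chr11:99058772-99059508), had 949, 784 and 570 in Naive and 300, 421 and 375 in N+P C1 (-1.06 ± 0.18, adjusted p = 1.5e-05). The promoter of Ccr7, given above, had a smaller log2 fold change and did not pass. Tgfbr2, a receptor for TGF-beta, had a pair of called peaks (-1.02 and -0.94), as did Rab8b, a small GTPase (-1.15 and -0.98). In the other direction the calls were intron peaks of Nrip1, a nuclear receptor corepressor (1.25), Slc5a11, an inositol transporter (1.56), and Camk1d, a calmodulin-dependent kinase (0.94), where the nearest gene start, that of Ccdc3, is 241703 bp away. At Nrip1 the counts were 33, 30 and 55 in Naive and 73, 100 and 115 in N+P C1 (chr16:76133774-76134661, adjusted p = 0.011). At Slc5a11 they were 5.51, 12.8 and 6.31 against 22.1, 22.4 and 28.3, too few for a precise fold.

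Which libraries were included decided how many peaks passed. Without Naive replicate 3 the 25-library fit gave 1616 higher and 1420 lower peaks at an adjusted p under 0.1, of which 15 (0.115%) and 145 (1.12%) passed the fold threshold. Without Naive replicate 1 it gave 9 and 0, and without Naive replicate 2 it gave 0 and 1. The same held over 6 libraries, with 2340 and 2199 without Naive replicate 3, 4 and 29 without replicate 1, and 5 and 26 without replicate 2. Leaving out an N+P C1 library of the 25 left 208 and 11, 83 and 9, and 182 and 23 for replicates 1, 2 and 3. In the 97 lower peaks Naive replicate 3 was the lowest Naive library in 93, and in 81 it lay between the other Naive and all N+P C1 libraries. Of the 83 peaks called over 6 libraries, 73 were called there again without it, and 60 (72.3%) were among the 160 called in the 25-library fit without it, of which they made up 37.5%.

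**Figure D3:**
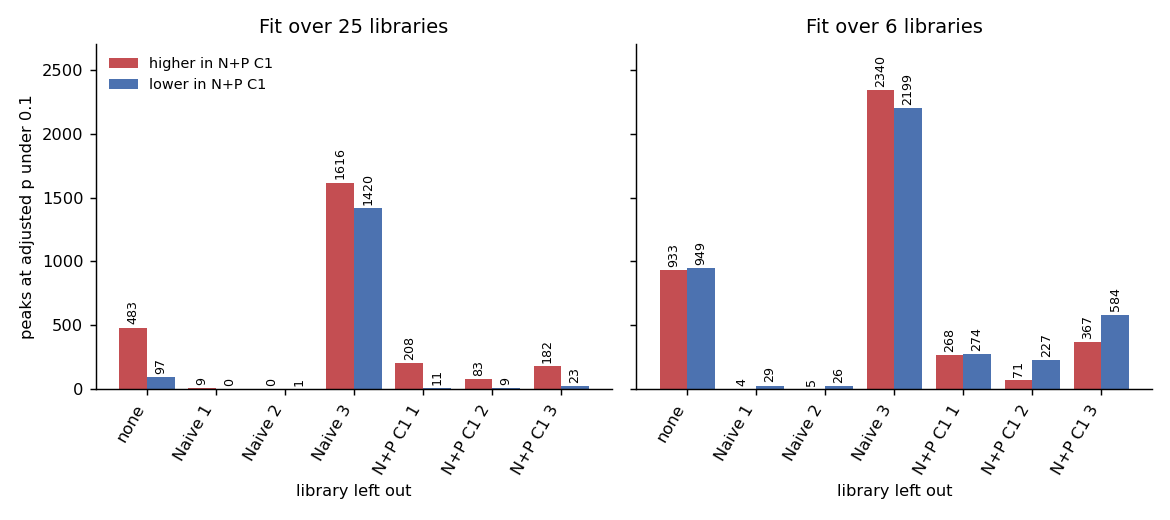
Number of peaks at an adjusted p under 0.1 (vertical axis), higher (red) or lower (blue) in N+P C1, with no library or 1 library left out (horizontal axis), in the fit over 25 libraries and the fit over 6. Counts rise to 1616 and 1420, and to 2340 and 2199, without Naive replicate 3, and fall to 33 or fewer in all without Naive replicate 1 or 2.

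The share of peaks with an AP-1 motif was larger among lower peaks outside promoters than among all of them. TGANTCA was found in 15.8% of the 5857 peaks outside promoters, in 28.3% of the 766 that were lower in the 6-library fit, in 41.9% of the 74 that were called lower, and in 4.74% of the 211 that were higher. These shares have no test, and AP-1 was singled out among 16 motifs after the values were seen. Read the other way, 23.4% of the 928 peaks with the motif were lower and 10 were higher, against 11.1% lower of the 4929 without it. Their median log2 fold changes were -0.25 and -0.08, and -0.27 and -0.05 without Naive replicate 3. In the 66 lower peaks of the 25-library fit outside promoters the share was 15.2%, beside 15.8% of all such peaks. Only peaks with a mean count of 609 or more over 25 libraries could pass in that fit, however. The motif was more frequent in weak peaks, at 26.9% of the lowest and 10.1% of the highest of 4 equal bins of mean count over the 6 libraries. The highest bin starts at 585, so its 10.1% is the nearer background for the 15.2%. The median log2 fold change with and without the motif was -0.37 and -0.22 in the lowest bin and -0.13 and -0.02 in the highest. The part of peak strength in these shares was not tested.

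The summed counts of the 928 AP-1 peaks made up 4.14%, 4.15% and 3.88% of the Naive libraries and 3.21%, 3.54% and 3.67% of the N+P C1 libraries. The groups did not overlap, and Naive replicate 3 was the lowest of its group. This separation was not particular to AP-1. Outside promoters, Naive shares also lay fully above those of N+P C1 for the bZIP, T-box, FOXO, KLF, NR4A and NF-kB motifs. For NF-kB they were 5.04% to 5.11% in Naive and 4.56% to 4.87% in N+P C1. For KLF they were 3.55% to 3.58% and 3.14% to 3.46%. For the other motifs searched, RUNX among them, the groups overlapped. RUNX motifs were in 20.1% of all peaks outside promoters, 24.0% of those lower and 32.4% of those called lower over 6 libraries, with medians of -0.14 with the motif and -0.09 without. At promoters the SP motif GGGCGGG was in 43.9% of the 435 higher peaks and 45.0% of all promoter peaks, which is nearly the same share. The AP-1 motif occurred at 313 promoter peaks, with a median of -0.03 against 0.03 for the others.

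**Figure D4:**
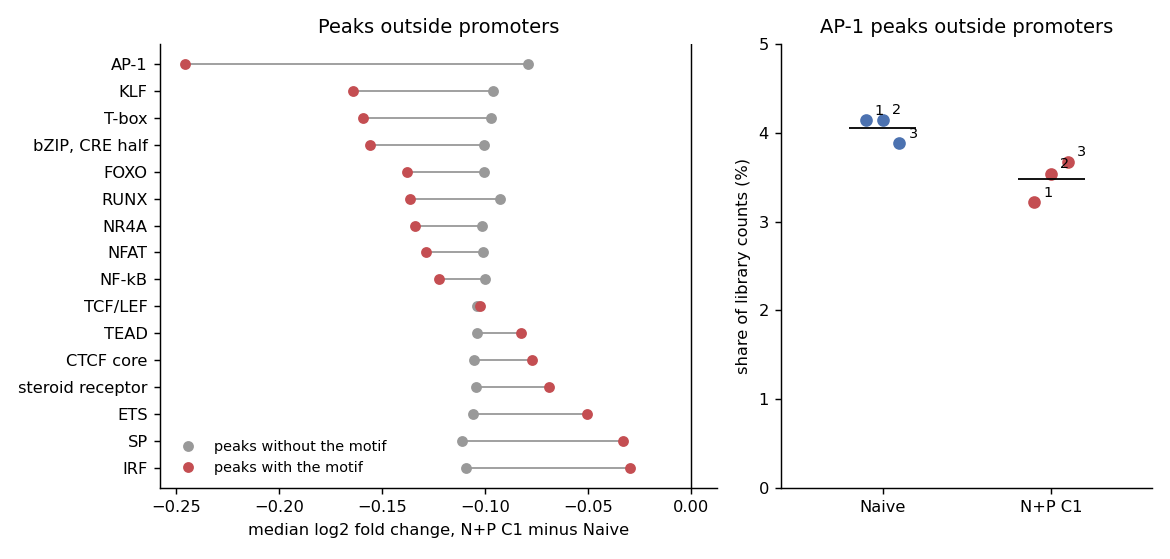
Left, median log2 fold change (N+P C1 minus Naive) of peaks outside promoters with (red) and without (grey) each of 16 motifs. Right, share of each library's counts in the 928 AP-1 peaks outside promoters, with replicate numbers and the group mean as a line. AP-1 shows the lowest median, -0.25, and the Naive libraries, at 3.88% to 4.15%, lie above the N+P C1 libraries, at 3.21% to 3.67%.

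Of the lists of genes, that of naive T cells and quiescence had the most peaks. Its 28 genes had 204 peaks, of which 48 (23.5%) were lower and 2 higher in the 6-library fit, against 7.02% and 6.9% of all peaks. Outside promoters, where all peaks were lower in 13.1%, the share was 26.0%. In the 25-library fit 8 of its 73 peaks with an adjusted p were lower and 0 higher, against 1.99% and 9.91% of all peaks with one, and 4 of the 8 were nearest to Bach2, a repressor that holds back effector differentiation, 2 to Foxp1, a quiescence factor, 1 to Ets1 and 1 to Tcf7. The Bach2 peak between genes at chr4:32148550-32149941 had 1434, 1368 and 1216 in Naive and 953, 1102 and 1015 in N+P C1 (log2 fold change -0.39 ± 0.13, adjusted p = 0.0643). The Foxp1 intron peak at chr6:99405570-99407001 had 906, 790 and 637 against 520, 537 and 582 (-0.51 ± 0.18, adjusted p = 0.0705). In neither did the groups overlap. The lower peaks of the 6-library fit belonged to 17 of the 28 genes, with 7 for Tgfbr2, 6 each for Bach2 and Ets1, and 4 each for Foxp1 and Klf3. The Tgfbr2 peak at chr9:116017659-116018769 had 854, 736 and 647 in Naive and 423, 480 and 503 in N+P C1 (-0.66 and adjusted p = 0.00129 over 6 libraries). The median log2 fold change was -0.01 over promoter peaks of the list and -0.27 over its other peaks, against 0.03 and -0.10 over all peaks. With Naive replicate 3 left out of the 25-library fit, 50 peaks of the list were lower and 1 higher.

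Genes of CD8 T cell identity showed a similar share. Of 47 peaks, 11 (23.4%) were lower and 0 higher over 6 libraries, 3 each nearest to Runx3 and Cd8a, 2 each to Cd247 and Lck, and 1 to Cd5. The Runx3 peak 11845 bp from the gene start had 161, 183 and 150 in Naive and 93, 72 and 102 in N+P C1 (-0.89, adjusted p = 0.0101). Only the Cd5 peak passed in the 25-library fit, at 495, 574 and 425 against 332, 320 and 286 (-0.67 ± 0.25, adjusted p = 0.0853). Cd5 encodes a receptor that dampens T cell receptor signals. Without Naive replicate 3 that fit gave 0 higher and 14 lower peaks of the list, beside 1616 and 1420 of all peaks. Outside promoters 28.6% of the list's 35 peaks were lower, against 13.1% of all such peaks. Of the 11 lower peaks 10 lay outside promoters, as did 47 of the 48 of the naive list.

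Immediate early and AP-1 genes had 18 lower and 5 higher of 90 peaks over 6 libraries (20% and 5.56%, against 7.02% and 6.9% of all peaks). Outside promoters 21.3% were lower, against 13.1% of all such peaks. Lower ones were nearest to Dusp2 (5), a phosphatase of MAP kinases, Fosl2 and Tnfaip3 (3 each) and others, and 3 of the higher ones were nearest to Jun. An intron peak of Atf3 passed in both fits, at 741, 671 and 582 in Naive and 364, 467 and 454 in N+P C1 (-0.63 ± 0.22, adjusted p = 0.066). A Tnfaip3 peak 156327 bp from the start of that NF-kB inhibitor had 1018, 988 and 734 against 337, 584 and 723 (-0.74 ± 0.24, adjusted p = 0.0596). A peak 109081 bp from the start of Jun went the other way, at 716, 736 and 970 against 984, 1112 and 1027 (0.36 ± 0.14, adjusted p = 0.0942). Peaks of this list thus passed in both directions.

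Effector and memory genes had 17 lower and 4 higher of 130 peaks (13.1% lower), none of them in the 25-library fit. Without Naive replicate 3 the 25-library fit gave 6 higher and 9 lower peaks of this list, beside 1616 and 1420 of all peaks. Over 6 libraries 14.4% of its peaks outside promoters were lower, close to the 13.1% of all such peaks. At the promoter of Itgb1, an integrin chain, counts were 411, 450 and 580 in Naive and 698, 732 and 731 in N+P C1 (0.59 and adjusted p = 0.00515 over 6 libraries). At a peak 4530 bp from Id2, a regulator of effector differentiation, they were 194, 237 and 314 against 357, 379 and 399 (0.60, adjusted p = 0.023). An intron peak of Il18r1, a cytokine receptor chain, was lower, at 205, 236 and 201 against 97, 140 and 104 (-0.90, adjusted p = 0.00492). Of its lower peaks 4 were nearest to Eomes, which is also on the NK cell list. The NK list had 4 lower (23.5%), all of Eomes, and 2 higher (11.8%) of 17 peaks, both of Klrb1c, against 7.02% and 6.9% of all peaks. Outside promoters 25% of its 16 peaks were lower, against 13.1% of all such peaks. A Klrb1c peak, in an intron of the annotated gene Gm44511, passed in the 25-library fit, at 849, 701 and 793 against 953, 1072 and 963 (0.35 ± 0.11, adjusted p = 0.0495).

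Shares in the lists of exhaustion and anergy genes lay nearer to those of all peaks. Over 6 libraries the exhaustion and co-inhibition list had 8 lower and 5 higher of 78 peaks (10.3% and 6.41%), and the list of anergy and negative T cell receptor signaling 4 and 4 of 76 (5.26% each). The shares of all peaks were 7.02% and 6.9%. Outside promoters 13.3% and 7.14% of these lists were lower, against 13.1% of all such peaks. In the 25-library fit 0 peaks of the exhaustion list passed, while 2 were higher and 5 lower without Naive replicate 3. Over 6 libraries an intron peak of Nfatc1, which encodes the calcium-regulated factor NFAT2, had 197, 247 and 233 in Naive and 126, 124 and 102 in N+P C1 (-0.93, adjusted p = 0.0019), and a distal peak of Irf4, induced by T cell receptor signals, had 741, 702 and 656 against 407, 482 and 524 (-0.57, adjusted p = 0.0042). At the promoter of Maf the counts were 552, 513 and 685 against 768, 763 and 703 (0.36, adjusted p = 0.0753). In the anergy list the higher peaks were 3 of Cblb and 1 at the promoter of Egr2, a factor that induces Cblb, with 2407, 2151 and 2646 in Naive and 2862, 2708 and 3050 in N+P C1 (0.26 ± 0.09 and adjusted p = 0.0656 over 25 libraries).

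Of the 63 peaks of the steroid, prolactin and Jak-Stat list, 10 were lower and 2 higher over 6 libraries (15.9% and 3.17%, against 7.02% and 6.9% of all peaks). Outside promoters 20.9% of its 43 peaks were lower, against 13.1% of all such peaks. A peak far from the start of Cxcr4, a chemokine receptor gene on this list, had 646, 678 and 563 in Naive and 342, 376 and 407 in N+P C1 (-0.75 ± 0.25, adjusted p = 0.0611 over 25 libraries and 0.000158 over 6). The promoters of Socs1, a suppressor of cytokine signaling, and Nr3c1, the glucocorticoid receptor, were higher in the 25-library fit (0.22 each, adjusted p = 0.067 and 0.0995), and Nr3c1 did not pass over 6 libraries (adjusted p = 0.12). Of 47 peaks of interferon genes 6 were lower, 5 of them nearest to Ifngr1 and 1 to Oas3, and 3 were higher, at Gbp3, Gbp7 and Mx1 (12.8% and 6.38%). All 6 lower ones were among its 30 peaks outside promoters (20%). At the Mx1 promoter, an interferon-induced antiviral gene, counts were 99, 151 and 169 in Naive and 180, 219 and 239 in N+P C1 (0.59, adjusted p = 0.0756 over 6 libraries). The Hippo and TEAD list had 3 lower (15%) and 0 higher of 20 peaks, all 3 of Vgll4 and among its 10 peaks outside promoters (30.0%). Of 15 peaks on the CD4 T cell list 1, of Gata3, was lower (6.67%, near the share of all peaks), and the 5 peaks of the B cell, myeloid and erythroid lists did not pass.

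**Figure D5:**
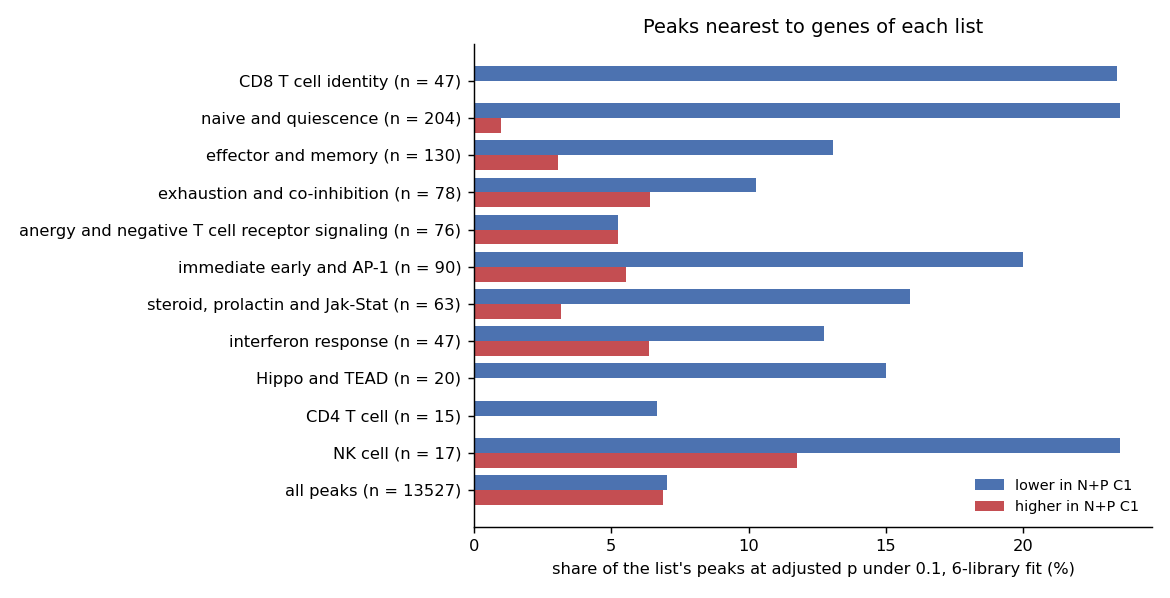
Share of each list's peaks at an adjusted p under 0.1 in the 6-library fit (horizontal axis, percent), lower (blue) or higher (red) in N+P C1, for lists with at least 15 peaks and for all 13527 peaks. The naive and quiescence, CD8 identity and NK lists reach 23.5%, 23.4% and 23.5% lower, against 7.02% of all peaks, and the NK list has only 17 peaks. Most peaks of these lists lie outside promoters, where 13.1% of all peaks were lower.

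PD1+CD73+ cells of the same condition, N+P C5, were set beside these values, and both comparisons use the same Naive libraries. Since the peaks were chosen against those libraries, the direction of N+P C5 against Naive is not independent. At the Vgll4 peak N+P C5 had 487, 725 and 783 and at the Tcf7 element 606, 588 and 630, within or near the range of N+P C1. Between N+P C1 and N+P C5 directly, 0 of 13527 peaks passed an adjusted p under 0.1 in DESeq2 (0.0%), and 32 were higher and 276 lower in N+P C1 at an unadjusted p under 0.05. A fit over these 6 libraries gave 0 higher and 13 lower peaks (0.0961%), and with the replicate block 0 higher and 3 lower (0.0222%). Same-numbered N+P C1 and N+P C5 libraries deviated together, with correlations of 0.400, 0.108 and 0.292. These libraries may therefore be paired, which the 25-library fit leaves out. Whether they share a mouse or a sort is not in the labels. The Nfatc1 intron peak differed in its values, with 217, 230 and 192 in N+P C5, all above the N+P C1 libraries, and with 1 of the 3 below the lowest Naive library.

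Whether the difference of PD1-negative cells after pregnancy from unmated controls varied with sensitization was tested as an interaction. It is the difference of S+P C4 against Sensitized minus that of N+P C1 against Naive. S+P C4 are PD1-negative cells after a pregnancy that followed a skin graft, and Sensitized mice had the graft alone. The labels name no PD1 gate for Sensitized cells either, so both differences hold the sort as well as the pregnancy. With the fold threshold 126 peaks (0.989%) had a positive and 24 (0.188%) a negative interaction. The Vgll4 peak was among them, with an interaction of 1.09. The count depended on single libraries, with 0 calls without Naive replicate 1 or 2, 591 without Naive replicate 3, 1 without Sensitized replicate 4 and 780 without Sensitized replicate 1, and 0 calls by edgeR, where 1981 and 1339 peaks had an unadjusted p under 0.05.

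The peak lists that the authors deposited for each group, which combine its libraries and give no value per library, overlapped widely. Of the 8602 peaks listed for N+P C1 86.5% shared at least 1 base with a Naive peak, and of the 8638 listed for Naive 87.3% with an N+P C1 peak. With a reciprocal overlap of at least 50% the shares were 82.0% and 81.6%. Among peaks at a deposited q-value under 0.05 they were 72.9% of 617 and 75.9% of 593.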

How the data were processed

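ATAC-seq libraries of sorted CD8+ T cells were compared, 3 of N+P C1 with 3 of Naive. Per the submitters' processing notes and the study's methods, the authors trimmed reads with cutadapt 3.4, aligned them to GRCm39 with Bowtie2 2.2.9, removed reads without a unique position and, with Picard 2.21.8, PCR duplicates, and called peaks per library with Genrich 0.6.1 in its ATAC mode. ChIP-R kept peaks that recurred within each of 7 groups, bedtools 2.27.1 merged these lists, and deepTools counted reads. The deposited table holds raw counts, unscaled and unfiltered. The deposited peak lists combine a group's libraries and give a q-value per peak.

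From the counts, DESeq2 1.42.0 (R 4.3.3, Wald test) was fitted to 25 libraries by group alone, with its default size factors (median of ratios), independent filter and Benjamini-Hochberg adjustment. This test follows the study's methods, as do the thresholds for a call, 0.1 for the adjusted p and 0.9 for the size of the log2 fold change. Fold changes are unshrunken. The fit over 6 libraries shares no spread with other groups. edgeR 4.0.16 (quasi-likelihood test) was an alternative, as were other scalings, filters and left-out libraries. Promoter shares were compared by exact permutation (scipy 1.17.1). The DESeq2 fits over 25 and 6 libraries were also run on simulated counts, on which no result given here rests.

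Peaks were placed by their midpoint in GENCODE vM39: those of promoter peaks lie at most 1000 bp from where a protein-coding transcript starts. 13522 of 13527 peaks took the name of the nearest protein-coding gene. Coordinates are 1-based. Motifs were searched on both strands in 300 bp around midpoints.

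Named were called peaks, then the 10 higher and 10 lower non-overlapping peaks with the smallest adjusted p, then per gene list the 4 genes with the smallest p of their best peak, which is thus the best of several, then promoters of sort and lineage markers. 14 gene lists and 16 motifs were used. The comparison, lists and motifs were chosen with earlier results of these data known. Totals of 4524243 to 13165657 counts per library limit weak peaks most. Same-numbered Naive and N+P C1 libraries did not deviate together, so the main fit has no replicate block. Libraries were sequenced together, and batches of mice or sorts are not in the labels.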

Additional observations from a re-analysis of the deposited data

Results flagged for a closer look

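Of the 66 named peaks with an adjusted p, 26 passed the interaction test of the 25-library DESeq2 fit at an adjusted p under 0.1. At these, the difference of PD1-negative cells after pregnancy from unmated controls varied between sensitized and naive mice. That difference holds the sort as well as the pregnancy. Of all 12740 peaks with an adjusted p 1473 (11.6%) passed, and since most named peaks were chosen for the N+P C1 effect, the larger share among them is not a result. By edgeR 0 of the 26 passed, and all 26 had an unadjusted p under 0.05. The value is the log2 difference of S+P C4 against Sensitized minus that of N+P C1 against Naive. It contains the N+P C1 effect with its sign turned, so the direction, opposite to it in all 26, is not independent.

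Of peaks lower in N+P C1, the interaction was 1.09 at the Vgll4 intron peak, 0.50 at Slc36a3, 0.51 at Oas3, 0.61 at Neurl3, 0.51 at Map4k4, 0.70 at the distal Tcf7 peak, 0.89 at the Ubald2 promoter, 0.64 at Ugcg, 0.54 at Tgfbr2, 0.85 at Ets1 and 1.10 at Eomes. Of peaks higher in N+P C1, it was -0.38 at Homer1, -0.39 at Fzd5, -0.35 at Polr2h, -0.23 at Mex3b, -0.39 at Atp2b1, -0.32 at Ppp1r12a, -0.34 at Ppp3ca, -0.48 at Ptger4, -0.38 at Edem1, -0.48 at Cblb, -0.85 at Id2, -0.57 at Maf, -0.30 at Egr2 and -0.28 at Socs1. It was -0.67 at the promoter of Nt5e, whose log2 fold change against Naive was positive but did not pass in either fit.

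The effect in sensitized mice alone ranged from -0.40 to 0.33 over these peaks. It was opposite in sign to the N+P C1 effect in 19 of 26, and 1 passed an adjusted p under 0.1. The interaction passed the fold threshold at 2 of them, Vgll4 and Eomes. Single libraries bear on these values: 10 of the 26 still passed when Naive replicate 1 was left out, 4 when replicate 2 was, 26 when replicate 3 was, and 12 when Sensitized replicate 4 was.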

How the results depend on the processing

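The 1 call of the 25-library fit became 39 with the independent filter off, 0 at an adjusted p under 0.05, 30 at a log2 fold change over 0.58, 83 over 6 libraries (also with the filter off), 94 over 9 libraries, 56 with total counts, 48 with promoter size factors, 3 with loess offsets, 37 with GC offsets, 2 with a mean count of at least 100, 76 with GC offsets over 6 libraries, 0 by edgeR and 85 by edgeR over 6 libraries. Leaving out 1 library gave 0 to 197 calls. The 580 peaks at an adjusted p under 0.1 became 212 at 0.05, 1882 over 6 libraries (also with the filter off), 2708 over 9, 247 with loess offsets, 895 with GC offsets, 2211 with GC offsets over 6 libraries, 2 by edgeR and 1432 by edgeR over 6 libraries, and 1 to 4539 with 1 library left out. They stayed within 1.5 times with TMM (422), total counts (682), promoter size factors (498), the filter off (412) and the mean count minimum (538), but each direction moved further with the filter off, from 483 higher and 97 lower to 236 and 176. More peaks were lower than higher with total counts (274 and 408) and promoter size factors (164 and 334), where the filter also kept more peaks, and with loess offsets (119 and 128). The 150 interaction calls became 17 at an adjusted p under 0.05, 732 at the lower fold, 246 with GC offsets, 0 by edgeR, and 0 to 780 with 1 library left out. The promoter share difference of 1.78 points ranged from 0.79 (without N+P C1 replicate 1) to 2.56 (exact p from 0.2 to 0.4), moving by less than its spread.

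With the replicate block over 6 libraries there were 60 calls and 977 peaks at an adjusted p under 0.1, and 57 and 1239 with GC offsets as well. Same-numbered libraries correlated at 0.035, -0.071 and 0.090 in their deviations from the group means, so these libraries share only a number. N+P C1 and N+P C5 libraries may be paired by number, and their 0 peaks at an adjusted p under 0.1 became 13 over those 6 libraries and 3 with the replicate block.

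The cause of these shifts was not tested. Fits over 9 and 6 libraries and those with added offsets over 6, the left-out libraries of the 6-library fit and edgeR over 6 libraries change the libraries that set the spread. The fits over 6 libraries with each library left out, with its filter off, with GC offsets and by edgeR, and those of N+P C1 with N+P C5, were added after seeing the data.

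Named peaks that changed sign had small log2 fold changes. The Cebpb peak (0.03) was -0.0026 with total counts, -0.0025 with promoter size factors and -0.010 with GC offsets, and -0.012 to 0.065 with 1 library left out. The Klri2 peak (-0.01) was 0.046 with the replicate block and GC offsets, 0.047 with GC offsets over 6 libraries, and -0.086 to 0.072 with 1 left out. The Il7r promoter (-0.11) was 0.00084 with loess offsets and -0.23 to 0.043 with 1 left out. The Lef1 promoter (0.02) was -0.00098 with TMM, -0.010 with total counts, -0.0097 with promoter size factors, -0.0013 by edgeR, and -0.016 to 0.076 with 1 left out. The promoters of Cd44 (0.07) and Tcf7 (-0.07) ranged from -0.052 to 0.19 and from -0.13 to 0.025 with 1 left out.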
